A study of Mus musculus with 42 samples.

Results

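RNA of the whole main olfactory epithelium was compared between mice that had smelled a lard-based high-fat diet (HFD_lard) and mice that had smelled a bacon-flavoured diet (BFD). The comparison was made in the input libraries, which were prepared from the homogenate before any ribosome capture, and it covered 5 HFD_lard pools (replicates 1, 2, 3, 5 and 6) and 5 BFD pools (replicates 1 to 5), 10 of the 42 libraries of the series. All genes that passed an expression filter were members, which left 19677 of the 44674 genes in the count table. The mice were adult C57BL/6NCrl males, each library held 4 pooled epithelia, and the exposure lasted 1 h. BFD matched the normal chow diet (NCD) in its nutrients and differed from it by an artificial bacon flavour, and both diets were given here only as odours. Other input libraries of the series came from mice exposed to NCD odour (6 pools) or to no odour (5 pools), and they are used below only to place the levels. No source used here says whether the pools of an odour were collected on separate days, so the p-values measure the spread between pools, and odour and collection cohort cannot be told apart.

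The main olfactory epithelium holds olfactory sensory neurons, each of which expresses an odorant receptor and a common set of signalling genes, and supporting sustentacular cells, basal stem cells and microvillous cells. Bowman's glands below it, and other glands of the nose, secrete mucus that contains mucins, antimicrobial proteins and lipocalins. Odorant-binding proteins are small lipocalins that bind volatile molecules in this mucus. When a sensory neuron fires, immediate early genes such as Fos, Egr1, Fosb and Nr4a1 are transcribed within the hour, and slower activity-dependent genes set the adhesion molecules of its axon. The tissue lies on bone and cartilage of the turbinates and septum, which a dissection can carry along. In bulk RNA, fewer cells of a type and less RNA per cell cannot be told apart.

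The libraries held between 26707654 and 33354891 counts. The tissue markers were present in all pools. Omp, which encodes olfactory marker protein, was at 5228 to 6588 CPM (counts scaled to a common library size) in HFD_lard and 4754 to 5626 CPM in BFD, with a log2 fold change of 0.17 ± 0.08 (SE, adjusted p = 0.209). All fold changes below are HFD_lard relative to BFD on the log2 scale, with adjusted p-values from edgeR's quasi-likelihood test over all genes tested, and a gene was called at an adjusted p under 0.05. Cyp2g1, an odorant-metabolizing enzyme of sustentacular cells, and Krt5, a keratin of horizontal basal cells, differed by 0.09 ± 0.08 and 0.09 ± 0.07. Gap43, a growth-cone protein of immature neurons, differed by 0.21 ± 0.06 (adjusted p = 0.0523). None of these 4 markers was called.

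In all, 461 genes (2.34% of those tested) were higher and 576 (2.93%) were lower under HFD_lard than under BFD odour. Most of these differences were small: the median log2 fold change was 0.31 among the higher and -0.39 among the lower genes, and only 28 higher and 53 lower genes changed more than 2-fold. At an unadjusted p under 0.05, 2310 genes were higher and 2202 lower. Counts of called list members below stand against the shares of 2.34% and 2.93%. Among the 10 genes with the smallest p-values in each direction, genes of secreted proteins were higher. Genes of cartilage, an immunoglobulin chain and an activity-regulated factor were lower. The number of calls rested on single libraries: it lay between 90 and 1942 for higher and between 120 and 1564 for lower genes when each library was left out in turn, with both maxima reached without HFD_lard replicate 2, and only without HFD_lard replicate 1 did the higher count stay within 1.5 times of 461. Of the 20 genes made up of the 10 with the smallest p-values in each direction, 19 were called under every alternative that could be fitted. Mup4 was lost only when all 21 inputs shared the fit.

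**Figure D1:**
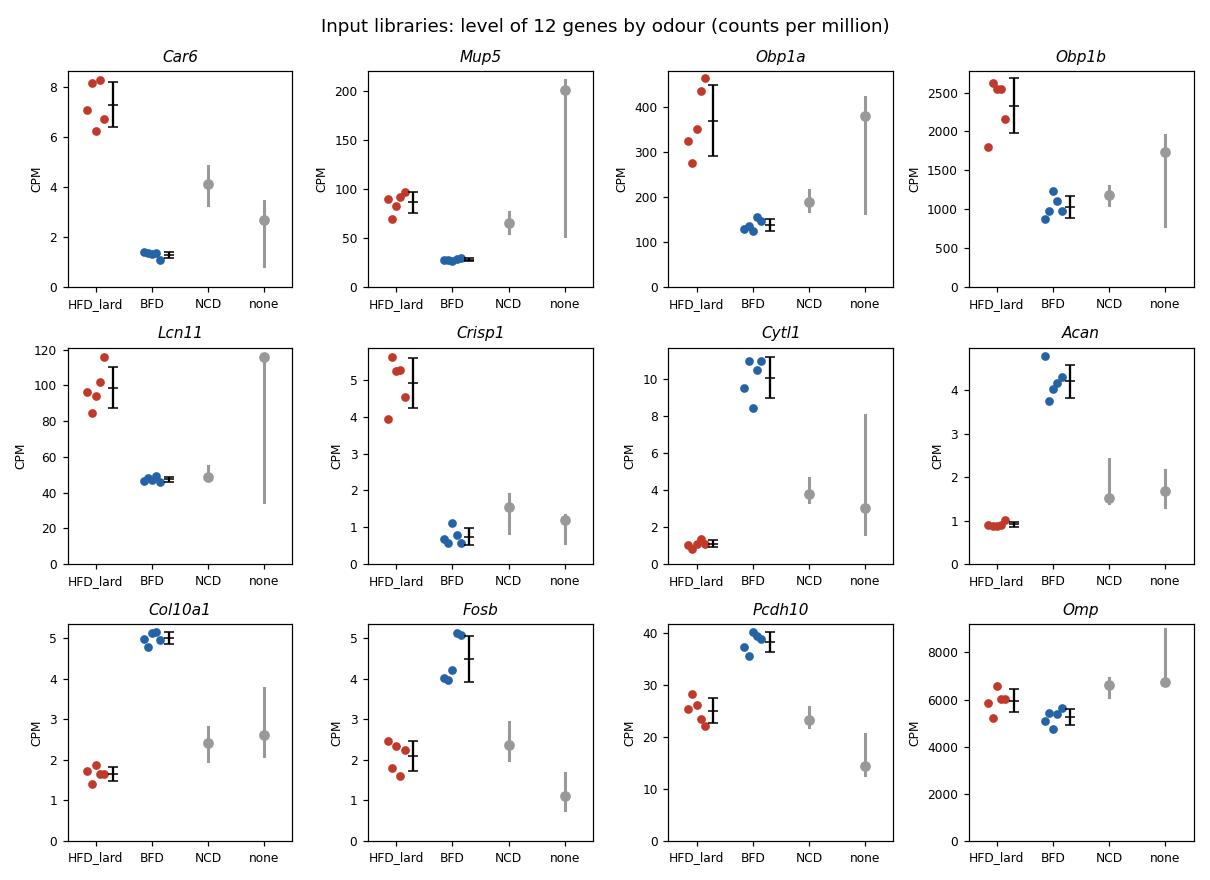
Level of 12 genes in the input libraries, in CPM on a linear axis from 0. Red and blue points are single HFD_lard and BFD pools with the mean ± SD beside them, and grey bars span the lowest to the highest NCD (n = 6) or no-odour (n = 5) pool with the median as a point. Car6, Mup5, Obp1a, Obp1b, Lcn11 and Crisp1 were higher in every HFD_lard pool than in any BFD pool, Cytl1, Acan, Col10a1, Fosb and Pcdh10 were lower, and Omp overlapped.

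The odorant-binding proteins of the X chromosome rose together. They lie in a cluster of 7 genes on the X chromosome, of which 6 were tested and all 6 were higher, with log2 fold changes of 0.92 to 1.52 and a median of 1.08, against 0.005 over all genes tested. The seventh, Gm5938, did not pass the expression filter. The 150 bases around their transcription start sites are shown to compare the genes at their starts (RefSeq, GRCm38.p6, 100 bases before to 50 after the start, gene strand, with the letters TATAAA in capitals where present):
Gm14744 (chrX:77864658-77864807, plus strand): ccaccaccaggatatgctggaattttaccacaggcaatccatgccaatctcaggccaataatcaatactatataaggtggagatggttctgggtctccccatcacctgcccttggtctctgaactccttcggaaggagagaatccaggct
5430402E10Rik (chrX:77925013-77925162, minus strand): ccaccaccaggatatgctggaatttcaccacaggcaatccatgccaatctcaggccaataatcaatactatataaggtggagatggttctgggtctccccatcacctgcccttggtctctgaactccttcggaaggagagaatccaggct
Obp1a (chrX:78091325-78091474, minus strand): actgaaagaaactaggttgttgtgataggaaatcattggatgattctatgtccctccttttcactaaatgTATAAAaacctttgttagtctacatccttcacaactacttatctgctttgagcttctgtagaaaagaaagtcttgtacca
Gm5938 (chrX:78125367-78125516, plus strand): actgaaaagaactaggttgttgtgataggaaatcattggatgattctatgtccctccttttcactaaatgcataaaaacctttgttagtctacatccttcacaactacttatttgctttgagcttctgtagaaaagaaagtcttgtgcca
Obp1b (chrX:78186708-78186857, plus strand): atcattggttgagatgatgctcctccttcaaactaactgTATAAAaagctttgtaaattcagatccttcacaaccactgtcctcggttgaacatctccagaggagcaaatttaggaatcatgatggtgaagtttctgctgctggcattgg
Gm14743 (chrX:78245872-78246021, minus strand): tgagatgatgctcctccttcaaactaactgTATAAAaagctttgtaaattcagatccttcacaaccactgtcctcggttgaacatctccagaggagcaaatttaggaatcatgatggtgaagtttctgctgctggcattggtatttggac

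Over their whole 300-base windows, the sequences fall into 3 pairs: Gm14744 and 5430402E10Rik were 99.3% identical, Obp1b and Gm14743 94.2%, and Obp1a and Gm5938 93.0%, whereas other pairs of the cluster lay between 47.2% and 60.7%. TATAAA stood 30 bases before the RefSeq start of Obp1a, 61 before that of Obp1b and 70 before that of Gm14743, and these letters were not in the other 3 windows. The distance depends on the annotated start: GENCODE starts Obp1b at X:78186777, nearer to the TATAAA than the RefSeq start. On either strand, 6.94% of all 32851 RefSeq windows of this length hold them. The transcripts are alike as well, since 80.7% of the 31-base words of Obp1b also occur in other genes, mostly Gm14743, and 83.2% of those of Gm14744, mostly in 5430402E10Rik. How the estimated counts were divided within a pair is therefore uncertain, and Obp1a, with 15.8% of its words shared, is the best separated of the called genes.

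Obp1a (X:78085505-78091374) was at 324, 277, 351, 437 and 465 CPM in HFD_lard replicates 1, 2, 3, 5 and 6, and at 129, 135, 126, 156 and 148 CPM in BFD replicates 1 to 5. Every HFD_lard pool was above every BFD pool, and the log2 fold change was 1.41 ± 0.13 (adjusted p = 0.00022). Obp1b (X:78186777-78192292) was at 1794 to 2622 CPM in HFD_lard and 870 to 1231 CPM in BFD, a log2 fold change of 1.17 ± 0.11. Its near copy Gm14743 rose by 1.52 ± 0.11, from 39.0 ± 3.92 CPM (SD, n = 5) under BFD to 113 CPM on average under HFD_lard. Gm14744 and 5430402E10Rik rose by 0.92 ± 0.10 and 0.98 ± 0.11, and the pseudogene Gm14750 by 0.96 ± 0.14. Summed over the cluster, the level was 3829 to 4854 CPM in HFD_lard, 1850 to 2250 CPM in BFD and 2005 to 2334 CPM in NCD. The no-odour pools covered the range from 1702 to 4345 CPM, so the unexposed pools alone spanned most of the distance between both odours.

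Among the listed odorant-binding proteins and lipocalins, 7 of 13 tested genes were higher and none was lower, with a median of 0.55. Obp1a and Obp1b of the X-linked cluster are among these 7, and 2.34% of all genes tested were higher. Mup5, a major urinary protein on chromosome 4 (4:61831319-61835233), was at 90.2, 69.8, 82.8, 92.1 and 96.5 CPM in the HFD_lard pools and at 27.9, 27.2, 26.1, 29.0 and 29.8 CPM in the BFD pools. The groups lay far apart, with a log2 fold change of 1.62 ± 0.08 (adjusted p = 3.35e-09). NCD pools were in between, at 55.4 to 76.4 CPM, and no-odour pools reached from 51.6 to 211 CPM. Mup4 rose by 0.70 ± 0.07 (adjusted p = 1.27e-05) and shares 38.0% of its words with other genes, mostly Mup5. Lcn11, a lipocalin on chromosome 2, was at 84.5 to 116 CPM in HFD_lard and 46.1 to 49.3 CPM in BFD, and rose by 1.05 ± 0.07 (adjusted p = 1.78e-07). The no-odour pools reached from 358 to 1060 CPM for Mup4 and from 34.9 to 117 CPM for Lcn11, so they spanned both odours. Lcn2, a siderophore-binding lipocalin that neutrophils and epithelia make, rose by 0.42 ± 0.07. Lcn3 and Lcn4 differed by -0.15 ± 0.08 and -0.22 ± 0.10, with adjusted p-values of 0.291 and 0.169. Both were called lower once a fitted curve of transcript length and GC content, described below, was removed.

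Further secreted proteins made up the other higher genes with the smallest p-values. Car6, the secreted carbonic anhydrase of saliva and nasal fluid (4:150187015-150201332), was at 7.10, 8.18, 6.22, 8.27 and 6.71 CPM in HFD_lard and at 1.39, 1.35, 1.33, 1.35 and 1.08 CPM in BFD. This was a 5.62-fold higher mean, with a log2 fold change of 2.48 ± 0.12 (adjusted p = 3.35e-09). Crisp1, a cysteine-rich secretory protein, rose from 0.742 ± 0.228 CPM to 4.92 ± 0.677 CPM (SD, n = 5 each), a log2 fold change of 2.72 ± 0.17. The secretoglobins Scgb1b27 and Scgb2b27, small secreted proteins of neighbouring genes on chromosome 7, rose by 2.01 ± 0.13 and 2.46 ± 0.21. Klk14, a secreted serine protease, rose by 1.87 ± 0.12, and the gene 2310057J18Rik by 1.98 ± 0.13. For all of these, each HFD_lard pool lay above each BFD pool. Named after their values were seen, Klk1, a tissue kallikrein, rose by 1.69 ± 0.28 and Pglyrp1, an antibacterial peptidoglycan-binding protein, by 0.61 ± 0.08. The NCD medians of Car6 and Klk14, 4.14 and 5.63 CPM, lay between the ranges of both odours.

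Markers of Bowman's glands were called in both directions. Of 14 tested members of that list, 1 was higher and 3 were lower, against 2.34% and 2.93% of all genes tested. Summed over the list, the level was 11320 to 12500 CPM in HFD_lard, 13620 to 16260 CPM in BFD and 9388 to 10010 CPM in NCD. No-odour pools ran from 8236 to 15040 CPM, from below the HFD_lard range into the BFD range. Muc5b, a gel-forming mucin, was at 1233 to 1634 CPM in HFD_lard and 1803 to 2044 CPM in BFD, a fall by 0.50 ± 0.08 on the log2 scale (adjusted p = 0.00437), and Dmbt1, a mucosal scavenger-type glycoprotein, fell by 0.51 ± 0.08. Bpifb9b, a secreted lipid-binding protein, fell by 0.34 ± 0.09 (adjusted p = 0.0329), the single call among 9 tested Bpif genes, and that call was lost in 8 of the 10 fits that left out a library. A fitted curve of transcript length and GC content was also removed, as described below. In that fit, 1 of these 9 genes was higher (Bpifb1) and 4 were lower (Bpifb5, Bpifb6, Bpifb9a and Bpifb9b). Bpifb9b shares 80.5% of its words, mostly with Bpifb9a, which differed by -0.26 ± 0.09 (adjusted p = 0.096) without that step. Ltf, lactoferrin, rose by 0.35 ± 0.09, a call lost in 7 of the 10 fits that left out a library.

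**Figure D2:**
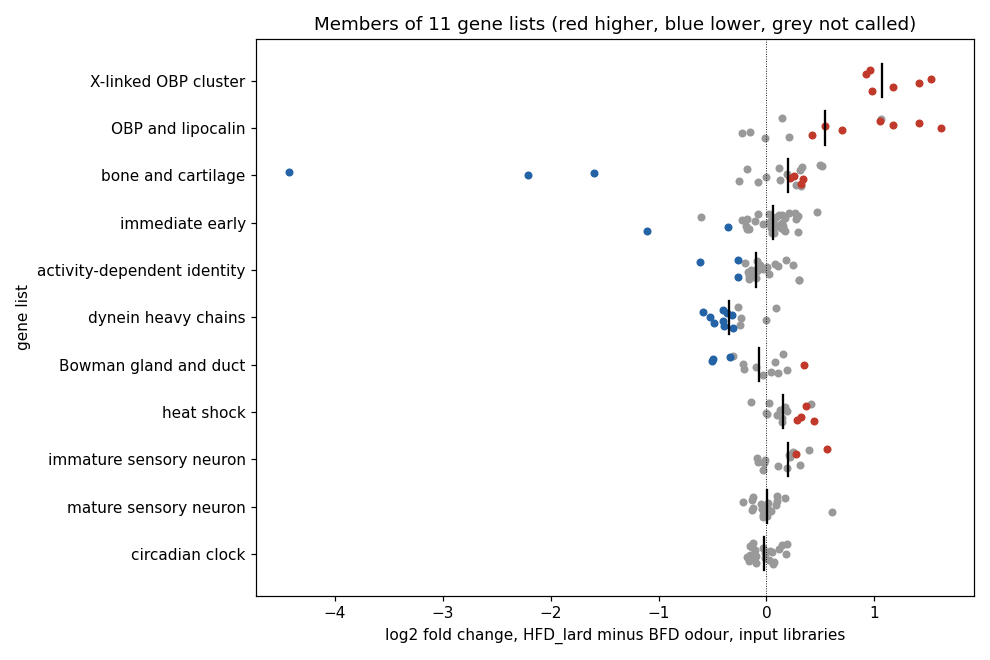
Log2 fold change (horizontal axis) of every tested member of 11 gene lists in the input libraries. Each point is a gene, red where called higher, blue where called lower and grey where not called, and black bars are the list medians, such as 1.08 for the X-linked cluster and -0.34 for dynein heavy chains. The X-linked genes stand to the right, 3 cartilage genes far to the left, and the mature neuron and clock lists around 0.

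Several genes of cartilage were lower. Cytl1, a cytokine-like protein secreted by chondrocytes (5:37735519-37739820), had the smallest p of all genes. It was at 1.04, 0.821, 1.10, 1.35 and 1.09 CPM in HFD_lard and at 9.49, 10.95, 8.40, 10.46 and 10.98 CPM in BFD, so BFD pools were 9.31-fold higher on average (log2 fold change -3.22 ± 0.13, adjusted p = 3.6e-10). Acan, the large cartilage proteoglycan aggrecan, fell by 2.21 ± 0.13 and Col10a1, the collagen of hypertrophic chondrocytes, by 1.60 ± 0.11. Matn1, a cartilage matrix protein, had 3 counts in all HFD_lard pools together and 82 in the BFD pools, a BFD to HFD_lard ratio of 27.2 (95% interval 8.98 to 135, counting error only). Ucma, a chondrocyte protein named after its values were seen, had 9 and 73 counts. NCD pools lay between both odours for Cytl1, at 3.34 to 4.62 CPM, and for Acan, at 1.41 to 2.42 CPM. The no-odour pools were at 1.62 to 8.05 CPM for Cytl1, most of the distance between both odours, and at 1.31 to 2.16 CPM for Acan.

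Other skeletal genes were not called or were higher. Of 20 tested members of the bone and cartilage list, 3 were lower and 4 were higher, with a median of 0.20. Over all genes tested, 2.93% were lower and 2.34% higher. Col2a1, the main collagen of cartilage, differed by -0.08 ± 0.11 (adjusted p = 0.704) and Comp, a cartilage matrix protein, by 0.19 ± 0.17. The higher members, also named after their values were seen, were bone genes, with values of 0.32 ± 0.08 for Col1a1, 0.26 ± 0.07 for Col1a2, 0.33 ± 0.09 for Alpl and 0.22 ± 0.06 for Ibsp. None of these 4 calls remained under the replicate block or with the length covariate described below. In the endothelial and stromal list, Col3a1, Tagln and Lum were higher by 0.27 to 0.45 and the other 15 tested genes were not called. The summed level of the bone and cartilage list was 2080 to 2734 CPM in HFD_lard, 1813 to 2066 CPM in BFD and 2487 to 3649 CPM in no-odour pools. The part that the amount of carried skeletal tissue has in these differences was not tested.

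Few immediate early genes were called. Of 40 tested members, 2 were lower and none was higher under HFD_lard, against 2.93% and 2.34% of all genes tested. The median was 0.06. Fosb, a subunit of the AP-1 transcription factor (7:19302696-19310051), was at 2.45, 1.79, 2.34, 1.59 and 2.25 CPM in HFD_lard and at 4.02, 3.96, 4.22, 5.12 and 5.06 CPM in BFD. It fell by 1.11 ± 0.14 (adjusted p = 0.000418), and every BFD pool was above every HFD_lard pool. NCD pools were at 1.99 to 2.92 CPM and no-odour pools at 0.76 to 1.67 CPM. Nr4a1, an orphan nuclear receptor, was at 35.1 to 46.9 CPM in HFD_lard and 49.0 to 55.7 CPM in BFD and fell by 0.35 ± 0.08 (adjusted p = 0.0171). That call was lost without HFD_lard replicate 3, BFD replicate 1 or BFD replicate 2. Fos and Egr1 differed by -0.18 ± 0.10 and -0.18 ± 0.06, with adjusted p-values of 0.265 and 0.082. Fos was at 5.82 to 8.04 CPM in HFD_lard, 7.74 to 9.19 CPM in BFD and 2.10 to 3.11 CPM in no-odour pools, so both odours stood above unexposed tissue in this gene while overlapping each other. Npas4, Arc and Junb were not called, with values of -0.60 ± 0.34, 0.07 ± 0.12 and 0.30 ± 0.16.

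The start sites of both lower genes are shown for the half-site of the cAMP response element, TGACG, the motif through which activity-regulated CREB acts (capitals mark it on either strand):
Fosb (chr7:19309996-19310145, minus strand): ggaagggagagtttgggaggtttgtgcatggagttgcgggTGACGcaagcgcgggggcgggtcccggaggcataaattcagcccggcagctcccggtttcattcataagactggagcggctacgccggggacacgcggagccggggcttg
Nr4a1 (chr15:101266746-101266895, plus strand): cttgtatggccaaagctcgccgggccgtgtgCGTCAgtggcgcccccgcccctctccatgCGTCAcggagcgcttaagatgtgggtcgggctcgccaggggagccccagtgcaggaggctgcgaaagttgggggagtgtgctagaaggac

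Fosb held 1 match, 60 bases before the start, and Nr4a1 held 2, the farther one 69 bases before it. The same letters occur in 13.9% of all RefSeq windows of this length.

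Activity-dependent genes of neuron identity included 3 lower and no higher member of 26, with a median of -0.10, where 2.93% of all genes tested were lower. Pcdh10, a protocadherin of sensory axons (3:45378398-45435623), was at 25.3, 28.2, 26.1, 23.4 and 22.02 CPM in HFD_lard and at 37.3, 35.5, 40.3, 39.4 and 38.8 CPM in BFD. The fall was 0.62 ± 0.07 (adjusted p = 5.82e-05) and the groups did not overlap. NCD pools, at 21.9 to 25.8 CPM, overlapped HFD_lard, and no-odour pools were at 12.7 to 20.5 CPM. Slit1, an axon guidance ligand, and Cntn4, a cell adhesion molecule, fell by 0.26 ± 0.07 each, but Slit1 lost its call in 7 and Cntn4 in 9 of the 10 fits that left out a library.

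Olfactory receptors, each of which sets the odours a neuron answers to, gave few calls in whole tissue. Of 828 tested receptor genes, 5 were higher (0.604%) and 3 lower (0.362%), against 2.34% and 2.93% of all genes. Their median fold change was 0.04 with quartiles of -0.09 and 0.18, and the median count per library was 41.5. At an unadjusted p under 0.05, 49 were higher and 14 lower. By the smallest p, the higher ones were Olfr412 (1.28 ± 0.30), Olfr191 (0.37 ± 0.10) and Olfr1324 (0.43 ± 0.12). The lower ones were Olfr613 (-0.43 ± 0.10), Olfr267 (-0.78 ± 0.20) and Olfr1393 (-0.88 ± 0.24). Each of these 6 calls was lost in 5 to 9 of the 10 fits that left out a library. Olfr412 was at 0.426 to 0.632 CPM in HFD_lard and 0.132 to 0.309 CPM in BFD, a level near the limit of the filter. Between 0 and 11 receptors were higher, and between 0 and 10 lower, when single libraries were left out. Receptors took 0.272 ± 0.0246% of the counts in HFD_lard and 0.282 ± 0.0127% in BFD (SD, n = 5 each, two-sided exact permutation p = 0.516). With ribosomal RNA-like genes left out of the total, the direction turned, with HFD_lard higher by 0.00325 percentage points. Ribosomal RNA-like genes took 15.9 ± 4.81% and 12 ± 1.69% (exact p = 0.127), and mitochondrially encoded mRNA 0.921 ± 0.0977% and 0.971 ± 0.186% (exact p = 0.77), where 5 against 5 pools allow no p below 0.00794.

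Marker lists of the cell types of the epithelium gave between 0 and 2 calls each. None of 19 mature neuron genes was called, and the one with the smallest p, Slc24a4, differed by -0.22 ± 0.08. Among 14 immature neuron genes, Tmsb10 rose by 0.56 ± 0.08 and Marcksl1 by 0.27 ± 0.07, and the latter call was lost in 6 of the 10 fits without a library. These 2 calls among 14, like the 2 each in the next list and among microvillous genes, stand against 2.34% of all genes tested. Of 15 progenitor genes, Ccnb1, a mitotic cyclin, rose by 0.38 ± 0.08 and Nhlh1, a factor of newly formed neurons, by 0.17 ± 0.05. Ccnb1 lost its call without HFD_lard replicate 3 and under the replicate block, and Nhlh1 lost it in 17 of 22 alternatives. None of 12 horizontal basal cell genes was called (Dst, -0.32 ± 0.10). Sustentacular genes gave 1 higher and 1 lower call of 18, with Cbr2, a carbonyl reductase, at 0.30 ± 0.07 and Muc2, a mucin, at -0.44 ± 0.10. Odorant-metabolizing enzymes gave the same Cbr2 and the aldehyde oxidase Aox2 (-0.25 ± 0.06) among 37. Aox2 lost its call in 7, Muc2 in 6 and Cbr2 in 4 of the 10 fits without a library. Of 15 microvillous cell genes, Ascl3 and Pou2f3, transcription factors of ionocytes and tuft-like cells, rose by 0.41 ± 0.09 and 0.38 ± 0.10, and lost their calls in 7 and 11 of 22 alternatives.

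Some motile cilia genes of the respiratory epithelium were lower. In that list, 6 of 21 tested genes fell, among them the dynein heavy chains Dnah6 (-0.59 ± 0.07, adjusted p = 0.000171) and Dnah9 (-0.40 ± 0.06), and 2 rose, the secreted antimicrobial lectin Reg3g (0.51 ± 0.07) and the secretoglobin Scgb3a1 (0.52 ± 0.13). Scgb3a1 lost its call in 7 of the 10 fits without a library. Over all axonemal dynein heavy chains, a family chosen after values were seen, 9 of 14 were lower and none was higher. Dnah6 was at 13.2 to 16.3 CPM in HFD_lard and 21.4 to 23.1 CPM in BFD, with NCD pools at 15.6 to 19.0 CPM. Their transcripts are long, and a length pattern is described below. In the family, 4 were called lower when a fitted curve of transcript length and GC content was removed.

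Immune and stress lists held both called and uncalled genes. Ighg2c, the constant chain of immunoglobulin G2c, had 10 to 20 counts in each HFD_lard pool and 70 to 108 in each BFD pool, a fall by 2.55 ± 0.21 (adjusted p = 2.83e-06), while NCD and no-odour pools did not exceed 0.221 CPM. Ighv1-72, an immunoglobulin variable gene named after its values were seen, had 0 to 8 and 19 to 41 counts, although 98.1% of its words occur in other genes. Of 14 tested immunoglobulin genes, these 2 were lower and Igkv1-135 was higher by 1.34 ± 0.31, and the median was -0.01. Within an odour, immunoglobulin counts had a chi-square per degree of freedom of 2.22 in HFD_lard and 1.92 in BFD, against 2.60 and 2.23 for other genes of low count, and over both groups together 4.25 against 2.72. None of the B and plasma cell (16 tested), T and natural killer cell (11) or erythroid (15) genes was called. Lcn2 and Ltf were the 2 calls among 17 neutrophil genes, and Cd74 and H2-Aa, antigen presentation genes, rose by 0.24 ± 0.06 and 0.25 ± 0.06 among 20 macrophage and dendritic cell genes, with calls lost in 7 and 6 of the 10 fits without a library. Of the heat shock list, 4 of 16 rose, led by the small heat shock proteins Cryab (0.37 ± 0.06) and Hspb1 (0.44 ± 0.08), with Ahsa1 at 0.32 ± 0.08, against 2.34% of all genes tested. Ahsa1 lost its call in 7 of the 10 fits without a library, as did Rtp4 of the next list. Interferon genes Ifitm3 and Rtp4 rose by 0.45 ± 0.07 and 0.35 ± 0.09 among 24. No gene was called among 21 of endoplasmic reticulum stress (Sel1l, -0.17 ± 0.06) or 22 of the circadian clock (Bhlhe40, 0.19 ± 0.06).

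Genes of metabolic sensing were also listed. Among 16 tested genes of lipid sensing and uptake, Cpt1a, the gate of mitochondrial fatty acid oxidation, fell by 0.19 ± 0.05 (adjusted p = 0.0496), and that call was lost in 9 of the 10 fits without a library. Among 11 metabolic hormone receptors, Igf1r and Insr fell by 0.28 ± 0.06 and 0.21 ± 0.05, against 2.93% of all genes tested that were lower. Each lost its call in 5 of the 10 fits without a library and under the replicate block. In the glucocorticoid and fasting list, Lcn2 and Cebpd rose and Zbtb16 (-0.66 ± 0.14) and Hif3a (-0.51 ± 0.11) fell among 29. Of markers that a dissection can add, Th and Slc6a11 of the olfactory bulb rose by 1.22 ± 0.27 and 0.77 ± 0.17 while Camk2a fell by 0.30 ± 0.07, and Th did not exceed 1.19 CPM in any of the 10 pools. Camk2a lost its call in 6, Slc6a11 in 4 and Th in 3 of the 10 fits without a library. The summed bulb list was at 1277 to 1886 CPM in HFD_lard and 1316 to 1575 CPM in BFD, and its part in the differences was not tested. Fabp7 and S100b of ensheathing glia rose by 0.28 ± 0.05 and 0.25 ± 0.05 among 16. No skeletal muscle (8 tested), vomeronasal (4), atypical neuron (8) or mitochondrially encoded (13) gene was called. Named after its values were seen, Cck, a peptide hormone, rose by 1.10 ± 0.19, from 0.60 to 1.21 CPM in BFD to 1.60 to 2.56 CPM in HFD_lard.

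A pattern across the whole transcriptome went with transcript length. Among protein-coding genes whose longest annotated transcript was under 1 kb, 102 of 684 were higher and 3 lower, with a median log2 fold change of 0.32. From 2 to 4 kb the median was 0.04, and above 8 kb it was -0.12, with 0 of 917 higher and 116 lower. Tma7, a short gene named after its values were seen, rose by 0.33 ± 0.05 and Atrx, a long one, fell by 0.47 ± 0.08. Ribosomal protein genes, which are short, had a median of 0.32, with 7 of 80 higher and none lower, and complex I genes a median of 0.32, with 9 of 38 higher. Of 903 tested unclassified or intronic transcripts, 85 were lower and none was higher. Each library was given a length score, the median log2 deviation of short (under 1 kb) minus that of long (over 4 kb) protein-coding genes. It ran from -0.57 to -0.23 in the BFD pools and from -0.44 to 0.33 in the HFD_lard pools, where replicate 6 had the highest and replicate 2 the lowest. NCD pools were at -0.20 to 0.13 and no-odour pools at 0.15 to 1.1, so the gradient also ran between pools that share an odour. The part that RNA quality or library preparation has in it was not tested.

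**Figure D3:**
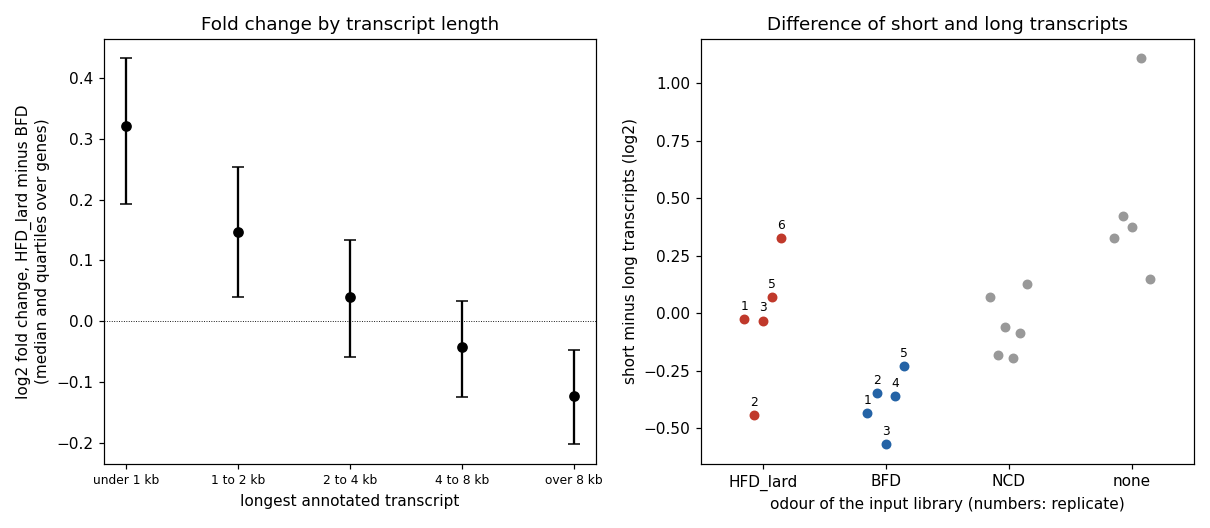
Left, median log2 fold change with quartiles over protein-coding genes in 5 classes of longest transcript, falling from 0.32 under 1 kb to -0.12 over 8 kb. Right, the length score of each input library (log2, short minus long transcripts) by odour, with replicate numbers for HFD_lard and BFD, where HFD_lard replicate 2 lies inside the BFD range.

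When a smooth curve of length and GC content was removed from each library, 217 genes were higher and 387 lower. In that fit, protein-coding genes under 1 kb still had a median of 0.135, against 0.321 in the main fit. The pattern in short transcripts was thus only partly removed, and calls that remained are not free of it. Of the 461 higher genes of the unadjusted fit, 165 (35.8%) were also higher there, and of the 576 lower genes 325 (56.4%) were also lower. With the length score as a covariate instead, only 89 (19.3%) and 104 (18.1%) of them were still called in the same direction. With the curve removed, the X-linked cluster still had 6 of 6 calls, the lipocalin list gave 7 higher and 2 lower calls, and the bone and cartilage list 3 lower calls. Lcn3 and Lcn4 were the lower lipocalins. Of the 80 called named genes, 24 were no longer called, among them Cryab, Hspb1, Tmsb10, Tma7, Fabp7, Igf1r and Insr. The immature neuron, microvillous cell, glia and hormone receptor lists each went from 2 calls to 0.

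Pools of the same numbers also gave pulldown libraries, in which ribosomes carrying phosphorylated S6, a mark of recently active neurons, had been captured. They are separate libraries of the same homogenates and not independent animals. In them, 77 genes were higher (0.407% of 18896 tested) and 39 lower (0.206%). Of the 461 higher input genes, 458 were tested there and 356 (77.7%) had the same sign, as had 475 of 519 lower genes (91.5%), compared with 60.7% of all 18419 genes tested in both. Secreted protein genes rose there too, Mup5 by 2.09 ± 0.10 and Crisp1 by 2.95 ± 0.14, and all 7 genes of the X-linked cluster, Gm5938 included, were higher. Cytl1 differed by -3.43 ± 0.24, Acan by -2.12 ± 0.25 and Fosb by -1.18 ± 0.15 (adjusted p = 0.00168). Pcdh10, Miat, Dnah6 and Serpina1d, lower in the inputs, were not called in the pulldown. For Pcdh10, 1 library stood apart: BFD replicate 1 was at 64.7 CPM in the pulldown, the other BFD pools at 104 to 116 CPM and the HFD_lard pools at 66.3 to 70.2 CPM. Without that library, 415 genes were higher and 286 lower in the pulldown. Miat, a long noncoding RNA, had fallen by 1.35 ± 0.15 and Serpina1d, an alpha-1-antitrypsin gene, by 2.03 ± 0.24 in the inputs. Lcn3 and Lcn4 fell by 1.28 ± 0.17 and 1.40 ± 0.15 in the pulldown, whereas they were not called in the inputs. Of 765 olfactory receptors tested in the pulldown, 21 were lower and 2 higher, against 0.206% and 0.407% of all genes tested there. They made up 21 of the 39 lower and 2 of the 77 higher pulldown genes. Olfr1324, higher in the inputs, differed by -1.31 (adjusted p = 6.16e-05). Whether the inputs and pulldowns differ in these genes was not tested.

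**Figure D4:**
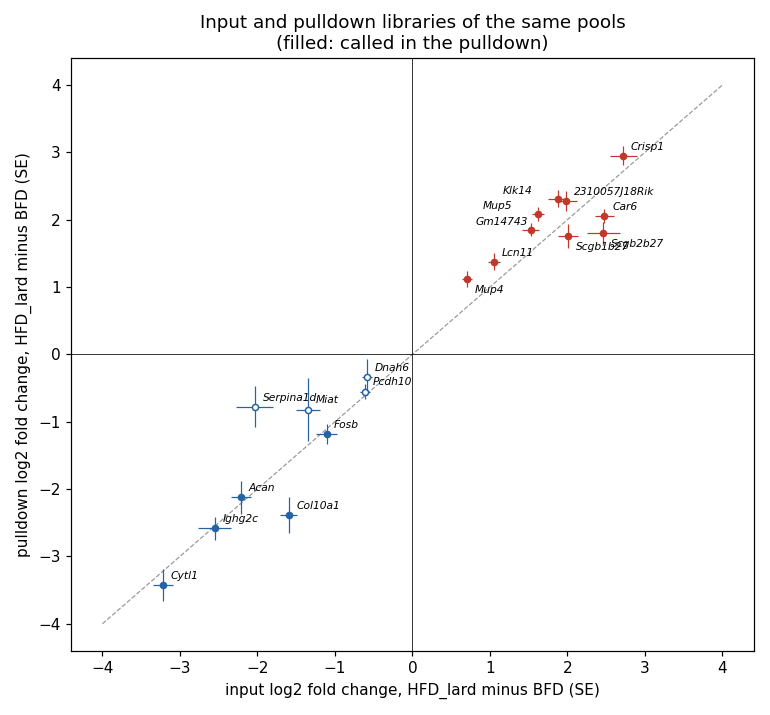
Log2 fold change of HFD_lard relative to BFD in the input libraries (horizontal) and in the pulldown libraries of the same pools (vertical) for those of the 20 leading genes tested in both, with SE bars and the line of equal change. Red genes were higher and blue genes lower in the inputs, filled points were called in the pulldown, and all of them lie on the same side of 0 in both.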

How the data were processed

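The table holds estimated counts per gene, which the authors deposited for all 42 libraries. Per the study's methods and the labels, reads were quantified with Salmon on GRCm38 after Ovation amplification and Nextera XT library preparation, and the authors used DESeq2 1.26 for their own tests. Of the deposited values above 0, 53% were not whole, so counts were rounded. Gene names, positions and transcript lengths came from GENCODE M21, and 556 unnamed genes held 0.347% of the counts. Genes were kept by filterByExpr with a minimum count of 10 in the 10 inputs, scaled by TMM, and compared with edgeR 4.0.16 (robust quasi-likelihood, no covariates, Benjamini-Hochberg adjustment over 19677 genes) in R 4.3.3. SE is the log2 fold change divided by the square root of F. CPM use TMM factors over all 21 inputs. DESeq2 1.42.0 and limma 3.58.1 (voom), other filters, scalings, sample sets, a replicate block and each library left out were alternatives, and the length covariate and the length and GC offset were added after seeing the data.

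Named genes were the 10 with the smallest p in each direction among called genes, up to 3 called members of each list (or the member with the smallest p where none was called), 3 receptors in each direction, and Omp, Cyp2g1, Krt5, Gap43 and Fos, with a further marker that is not reported here. Others are said to be named after their values were seen, as are Obp1a, Obp1b, Gm14743's neighbours in the X-linked cluster, Lcn3, Lcn4, Bpifb9a, Col2a1, Comp, Egr1, Npas4, Arc, Junb and Scgb3a1. Members and gene lists were chosen with earlier results of these data known. Every pair of libraries of an odour differed by more than counting error (chi-square of at least 3.19 for each degree of freedom), so all pools were counted. Genes that share sequence can exchange estimated counts, and the strand setting of the counting is not given in the sources used here.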

Additional observations from a re-analysis of the deposited data

Results flagged for a closer look

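In 11 of 216 groups of 5 pools tested, a pool stood apart from its group for a named gene, where chance alone flags about 1 group in 20. Among the leading genes, Car6 was at 1.08 CPM in BFD replicate 5, below the other BFD pools at 1.33 to 1.39 CPM, and Acan was at 1.02 CPM in HFD_lard replicate 6, above the others at 0.868 to 0.892 CPM. Both stayed on their side of the other odour. Cck was at 0.6 CPM in BFD replicate 2, and Rtp4 at 4.57 CPM in BFD replicate 5, each the lowest of its odour. Igf1r was at 46.9 CPM in HFD_lard replicate 1 and Cpt1a at 51.6 CPM in HFD_lard replicate 2, each the highest. Olfr1324 was low in HFD_lard replicate 1 (3.60 CPM) and high in BFD replicate 3 (4.04 CPM), which made its groups overlap. Slc24a4 was at 48.5 CPM and Gnai2 at 83.4 CPM in BFD replicate 3, and Gzma at 1.04 CPM in HFD_lard replicate 3, and these 3 genes were not called.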

How the results depend on the processing

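Numbers of calls depended on the processing far more than the leading genes did. The main counts were 461 higher and 576 lower genes. They were 978 and 893 with DESeq2, 47 and 55 when all 21 inputs shared the fit, 856 and 863 with the 16 odour inputs, 217 and 387 with the length and GC offset, 345 and 262 with the length covariate, and 16 and 12 at an adjusted p under 0.001. The length covariate kept only 89 of the 461 higher genes (19.3%) and 104 of the 576 lower genes (18.1%), so most of its calls were other genes. With the replicate number as a replicate block the counts were 109 and 225. Between the odours, the deviations of pools numbered 1, 2, 3 and 5 correlated at 0.11, -0.045, 0.1 and 0.048 over all genes. Pools of unlike number were not compared in this way, and whether a shared number marks pools handled together was not tested. Leaving out single libraries gave 90 to 1942 higher and 120 to 1564 lower genes. The cause of these changes was not tested.

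Receptor calls (5 higher, 3 lower) became 8 higher with DESeq2, 0 and 0 with all 21 inputs or at 0.001, 10 higher with the odour inputs, 1 and 0 under the replicate block, 10 and 1 with the ribosomal RNA-like share as covariate, 9 and 0 with the length covariate, and 1 lower with the offset. They ranged from 0 to 11 higher and 0 to 10 lower without single libraries. The higher bone genes (4) became 0 with all 21 inputs, 0 under the replicate block, 1 with the ribosomal RNA-like covariate, 0 with the length covariate and 2 with the offset, and 0 to 9 without single libraries. Lower immediate early genes (2) became 1 with all 21 inputs, 4 with either covariate and 1 to 3 without single libraries. Lower dynein heavy chains (9) became 1 with all 21 inputs, 4 under the replicate block, 2 with the length covariate, 4 with the offset and 6 to 9 without single libraries. Pulldown calls (77 and 39) became 220 and 106 with DESeq2, and 52 to 415 and 25 to 286 without single libraries, both highest without BFD replicate 1.

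The lipocalin list gave 5 to 8 higher calls, the X-linked cluster 4 to 6 and the cartilage genes 2 to 3 lower calls under every alternative fitted. The ribosomal RNA-like share differed by 2.33 to 5.45 percentage points without single libraries, with an exact p of 0.0317 without HFD_lard replicate 2. The mitochondrial share differed by -0.0762 to 0.0327 and the receptor share by -0.0182 to -0.00235 points, but with ribosomal RNA-like genes left out of the total the receptor share was higher in HFD_lard by 0.00325 points (exact p = 0.643). None of the 80 called named genes that were refitted changed direction under any alternative. At an adjusted p under 0.05, 51 of these 80 genes were still called under the replicate block and 35 with all 21 inputs. At that threshold, 30 were called under every alternative that could be fitted.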

Other observations

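Histone genes, a family chosen after values were seen, had a positive log2 fold change in 58 of 58 tested members. Over all genes, 10035 of 19677 were positive. The histone median was 0.46, with 8 called higher. Protein-coding genes under 1 kb had a median of 0.32, with 14.9% called higher. With the length and GC offset the histone median was 0.28 and 4 histone genes were called higher. Clustered protocadherins, which give sensory neurons their surface identity, had a median of -0.14, with 1 lower call among 58. The trace amine-associated receptors, a separate family of olfactory receptors, had a median of -0.03 over 8 tested genes with none called. The no-odour pools differed among themselves more than the pools of an odour did in immunoglobulin genes. The chi-square per degree of freedom was 9.23, against 1.85 in NCD. For other genes of low count it was also higher in the no-odour pools, at 3.83 against 2.27 in NCD.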
